A study of Mus musculus with 16 samples.

Results

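Potassium channel genes were followed in the transcriptomes of 16 mouse hearts. All genes of the deposited table whose symbol begins with Kcn followed by a lower-case letter and whose mean was at least 5 normalized reads over the 16 libraries were taken as members, which gave 64 of 24421 genes. Of these 64 members, 61 encode channel subunits, and 3 do not: Kcnq1ot1 and Kcnd3os are noncoding RNAs, and Kcnrg encodes a regulator of channel assembly. Another 34 genes matched the name but stayed under the mean, 20 of them under 1 read. The members nearest to the threshold were Kcnh3, with a mean of 5.04, and Kcnip4, with 5.14, while Kcnf1, with 3.94, and Kcnmb4, with 3.22, lay just outside it.

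The hearts came from 4 groups of 4 animals: ERBB2-overexpressing mice (OE) after sham surgery, wild-type mice (WT) after sham surgery, OE mice after myocardial infarction (MI), and WT mice after MI. MI was made by tying off a coronary artery, the left anterior descending one, for good, RNA was taken 2 weeks after the operation, and the animals were about 3 months old. The labels used here give neither the promoter, the cell type nor the species of the ERBB2 transgene, nor the sex of the animals, and that each library was a separate animal rests on the series' design text. Libraries held between 11939093 and 17468914 counted reads, and values below are reads divided by the authors' size factor for each library (normalized reads).

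Erbb2, which checks the genotype labels, had 1946, 792, 2529.9 and 1783 normalized reads in the 4 OE sham hearts, against 259.6, 248, 245 and 259 in the 4 WT sham hearts. After MI it had 793, 1105, 1808 and 2504 in OE hearts, against 222, 276, 204 and 307 in WT hearts, so no library went against its genotype label. Transcripts of 8 cardiomyocyte genes were abundant in every library, with sums of 642396 or more, but every OE library lay below every WT library. The sums ran from 712284 to 842978 in OE sham and from 1031600 to 1186140 in WT sham hearts. After MI they ran from 642396 to 772529 in OE and from 942471 to 1006010 in WT hearts. Several infarcted libraries also carried RNA of other organs. The lung surfactant gene Sftpc had 4.63, 2744, 1097 and 0 normalized reads in the 4 OE infarcted libraries and 3.62, 5038, 1187 and 4018 in the 4 WT infarcted libraries, and at most 3.45 in any sham library. The thymocyte gene Rag1 had 256, 0, 422 and 162 in the OE infarcted libraries and at most 5.48 in the other 12. The skeletal muscle myosin Myh4 had 139 normalized reads in WT sham replicate 1, 49.4 in OE infarcted replicate 1, 145 and 31.8 in WT infarcted replicates 1 and 2, and at most 6.42 elsewhere. Results in infarcted hearts are therefore also given without the libraries that held lung genes and without those that held skeletal muscle genes. Thymocyte genes entered only as a covariate, and no run left out all the libraries that held them.

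Potassium channels let potassium leave the cell, which repolarizes the heart muscle cell after each beat and holds its resting potential. A channel is built of pore-forming subunits, which set the current, and of auxiliary subunits, which set how much channel reaches the membrane and how fast it opens and closes. In the mouse ventricle the early phase of repolarization rests mainly on the fast transient outward current, Ito, of Kcnd2 and Kcnd3 with the auxiliary subunit of Kcnip2. Delayed rectifiers, Kcna5 among them, follow, and inward rectifiers of the Kcnj family set the resting potential. Transcripts need not track currents, which were not measured here.

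Of the 64 members, 57 had enough reads to be tested, that is at least 10 normalized reads in at least 4 libraries. In OE against WT sham hearts 30 of these 57 passed an adjusted p of 0.05 in limma, 12 higher and 18 lower in OE, and 27 did not pass. Of all 14298 genes tested in the same fit 49.3% passed, 24.9% higher and 24.5% lower, so the share of members that passed, 52.6%, was near that of the transcriptome. The median log2 fold change of the tested members was -0.22, against 0.01 over all genes, and their median absolute change was 0.89, against 0.35. Of the 30 members that passed, 9 were at least 2-fold higher and 13 at least 2-fold lower. The share of all genes that passed with a 2-fold change was not counted. These 2-fold numbers therefore describe the members and do not set them apart from other genes. Of the tested members, 8 had fewer than 4 libraries at 10 reads in one genotype (6 of them in WT), and had thus entered the test mainly through the other genotype. Those with fewer in WT were Kcnj6, Kcne1l, Kcna3, Kcne3, Kcnab3 and Kcnj4, and those with fewer in OE were Kcnk1 and Kcnc4. Kcnj6, Kcne1l, Kcna3 and Kcnk1 are counted among the 30 calls and the 2-fold changes. Their calls are therefore not independent of the filter.

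Among abundant members most were lower in OE sham hearts. Of the 8 tested members with a mean of at least 1000 normalized reads, 7 were lower in OE sham hearts and 0 were higher, where 37.5% of all genes that abundant were lower and 26.1% higher. Between 100 and 1000 reads 7 of 17 members were lower and 3 higher, against 24.4% and 26.5% of all genes in that range. Between 20 and 100 reads 3 of 19 were lower and 6 higher, against 16.1% and 23.9% of all genes. Below 20 reads 1 of 13 was lower (Kcnk1) and 3 were higher (Kcnj6, Kcne1l and Kcna3). All of these entered the test mainly through 1 genotype. Their counts therefore cannot be weighed against the shares of all genes in that range, 12.1% and 13.8%. The summed level of all members, per kilobase of exon, was 5117 ± 241 in OE sham hearts and 8681 ± 261 in WT sham hearts (mean ± SD, n = 4 each), and 4868 ± 557 in OE infarcted hearts and 7183 ± 476 in WT infarcted hearts. Every OE library lay below every WT library in that sum, as was also so for the summed reads of the cardiomyocyte markers. The part of cardiomyocyte RNA in the lower channel sum was not tested.

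**Figure D1:**
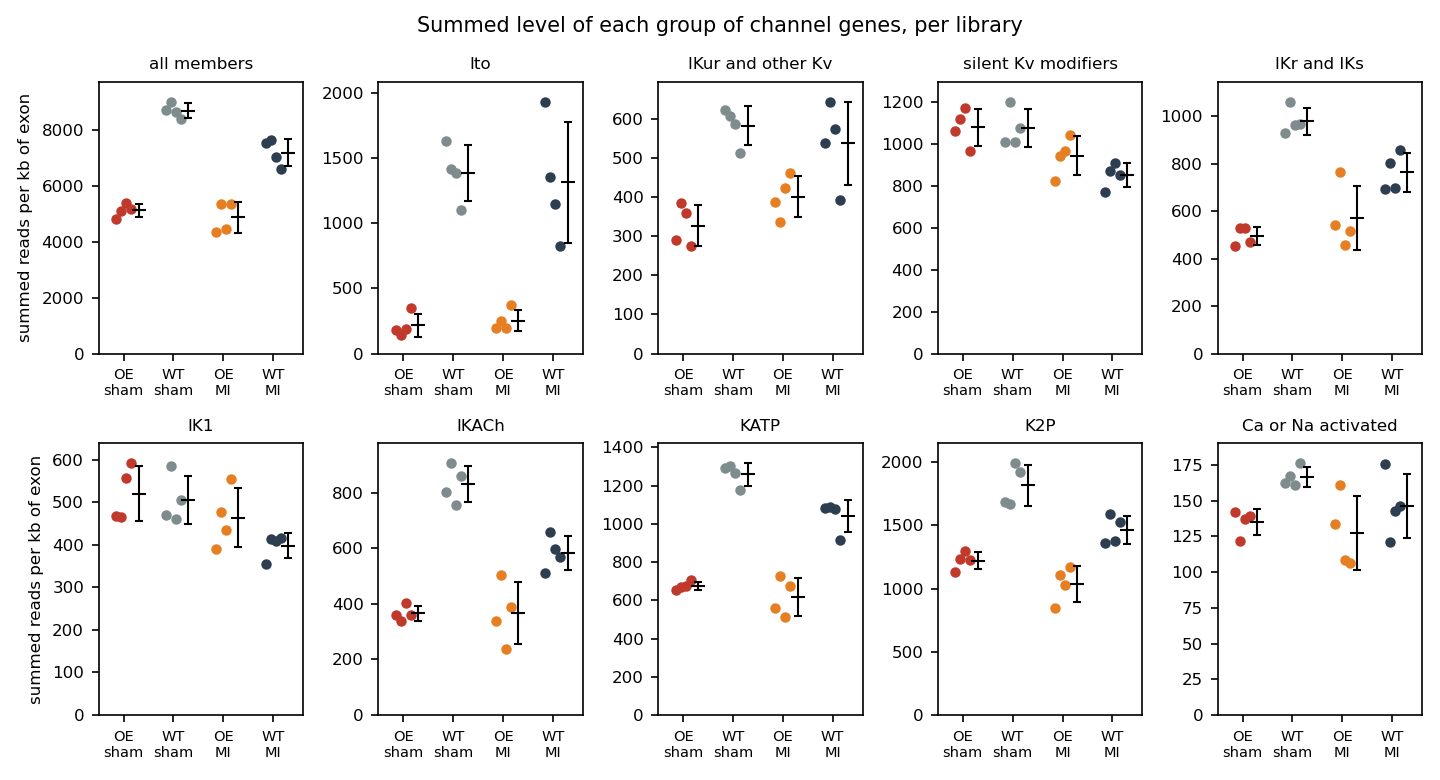
Summed reads per kilobase of exon (y axis, linear from 0) of all 64 members and of 9 groups of channel genes in each library. Coloured points are libraries and black bars the group mean ± SD of 4. The sum over all members is lower in OE than in WT hearts, the Ito sum shows the widest relative gap of the 9 groups, and the IK1 sum overlaps between OE and WT sham hearts.

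Kcnip2 and Kcnv2 had the lowest log2 fold changes of the 57 tested members in OE sham hearts, -3.51 and -3.42, a gap smaller than their SE. Kcnip2 (chr19:45791839-45816061, minus strand), which encodes the KChIP auxiliary subunit that the ventricular Ito channel needs for surface expression, had 223, 177, 204 and 584 normalized reads in OE sham hearts, against 3602, 3034, 3065 and 2374 in WT sham hearts. After MI it had 296, 362, 299 and 692 in OE hearts, against 4356, 3019, 2484 and 1721 in WT hearts. The genotypes did not overlap in either setting, and replicate 4 was the highest OE and the lowest WT library in both. Kcnip2 was lower in OE in the sham (log2 fold change -3.51, SE 0.36, adjusted p = 1.57e-06) and in the infarcted comparison (log2 fold change -2.82, SE 0.36, adjusted p = 3.68e-05). For scale, the 8 cardiomyocyte markers had a median log2 fold change of -0.74 in sham hearts, with 5 lower, 1 higher and 2 not passing, and -0.44 in infarcted hearts with the same counts. In RNA from whole tissue fewer cells of a type and less RNA per cell cannot be told apart.

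The pore genes of the same current moved unequally. Kcnd2 (chr6:21215503-21729805) had 167, 97.7, 223 and 215 normalized reads in OE sham hearts and 484, 562, 376 and 346 in WT sham hearts, without overlap (log2 fold change -1.37, SE 0.28, adjusted p = 7.85e-04). In infarcted hearts it had 71.8, 169, 143 and 149 in OE and 449.5, 354, 447 and 313 in WT (log2 fold change -1.60, SE 0.28, adjusted p = 4.97e-04), again without overlap. Kcnd3 (chr3:105452330-105674002), the other main pore, had 174, 179.8, 223 and 206 in OE sham and 367, 386, 411 and 413 in WT sham hearts (log2 fold change -1.01, SE 0.16, adjusted p = 6.75e-05), and after MI 164, 229, 160.1 and 215 in OE and 342, 207, 225 and 299 in WT hearts, which overlapped (log2 fold change -0.47, SE 0.16, adjusted p = 0.0305). Leaving out any of 4 single libraries ended that call. The difference between the gaps was not called in the interaction (0.54, adjusted p = 0.427).

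Kcna4 and Kcnd1, also pores of transient outward channels, were higher in OE sham hearts. Kcna4, the pore of the slowly recovering transient outward current, had 53.6, 43.3, 47.6 and 43.8 normalized reads in OE sham hearts, against 25.8, 26.8, 24.1 and 16.04 in WT sham hearts, a rise without overlap (log2 fold change 1.01, SE 0.32, adjusted p = 0.0153). Its call was lost without WT sham replicate 4 (adjusted p = 0.0517), and infarcted hearts overlapped, with 30.1, 76.4, 37.03 and 41.4 in OE and 21.7, 28.5, 19.6 and 56.9 in WT (0.57, adjusted p = 0.191). Kcnd1, a related pore gene of low abundance, also rose in OE sham (0.89, adjusted p = 0.0110) and OE infarcted hearts (0.80, adjusted p = 0.0304), the second a call that each of 4 single libraries ended. With only the libraries numbered RA 1 to 12 in the deposited table, which leaves out OE sham replicate 4, WT sham replicates 3 and 4 and WT infarcted replicate 4, the sham calls of Kcna4 (adjusted p = 0.0670) and Kcnd1 (0.139) were lost. Kcnip3, another KChIP gene, gave -0.21 (adjusted p = 0.583) in sham hearts. Kcnip1 was too low to be tested, with 1.79, 0.922, 1.90 and 0 in OE sham and 16.8, 7.66, 11.5 and 5.35 in WT sham hearts, and Kcnip4 stayed under 10 in every library.

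The make-up of the transient outward genes is given as ratios within each library. Per kilobase of exon, Kcnip2 stood at 1.95 ± 0.993 times the sum of Kcnd2 and Kcnd3 in OE sham hearts and at 8.82 ± 1.28 times that sum in WT sham hearts (mean ± SD, n = 4 each), and at 3.24 ± 1.17 in OE infarcted and 10.3 ± 3.08 in WT infarcted hearts. The share of Kcna4 in Kcna4, Kcnd2 and Kcnd3 was 14.5 ± 3.06% in OE sham and 3.38 ± 0.50003% in WT sham hearts, and 15.5 ± 3.23% in OE infarcted and 5.78 ± 3.42% in WT infarcted hearts. No OE library overlapped a WT library in either measure within sham or within infarcted hearts. These and the other ratios below were chosen after values had been seen and are given without a test. Of 8 such measures in 2 settings, 14 of 16 sets had no overlap.

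**Figure D2:**
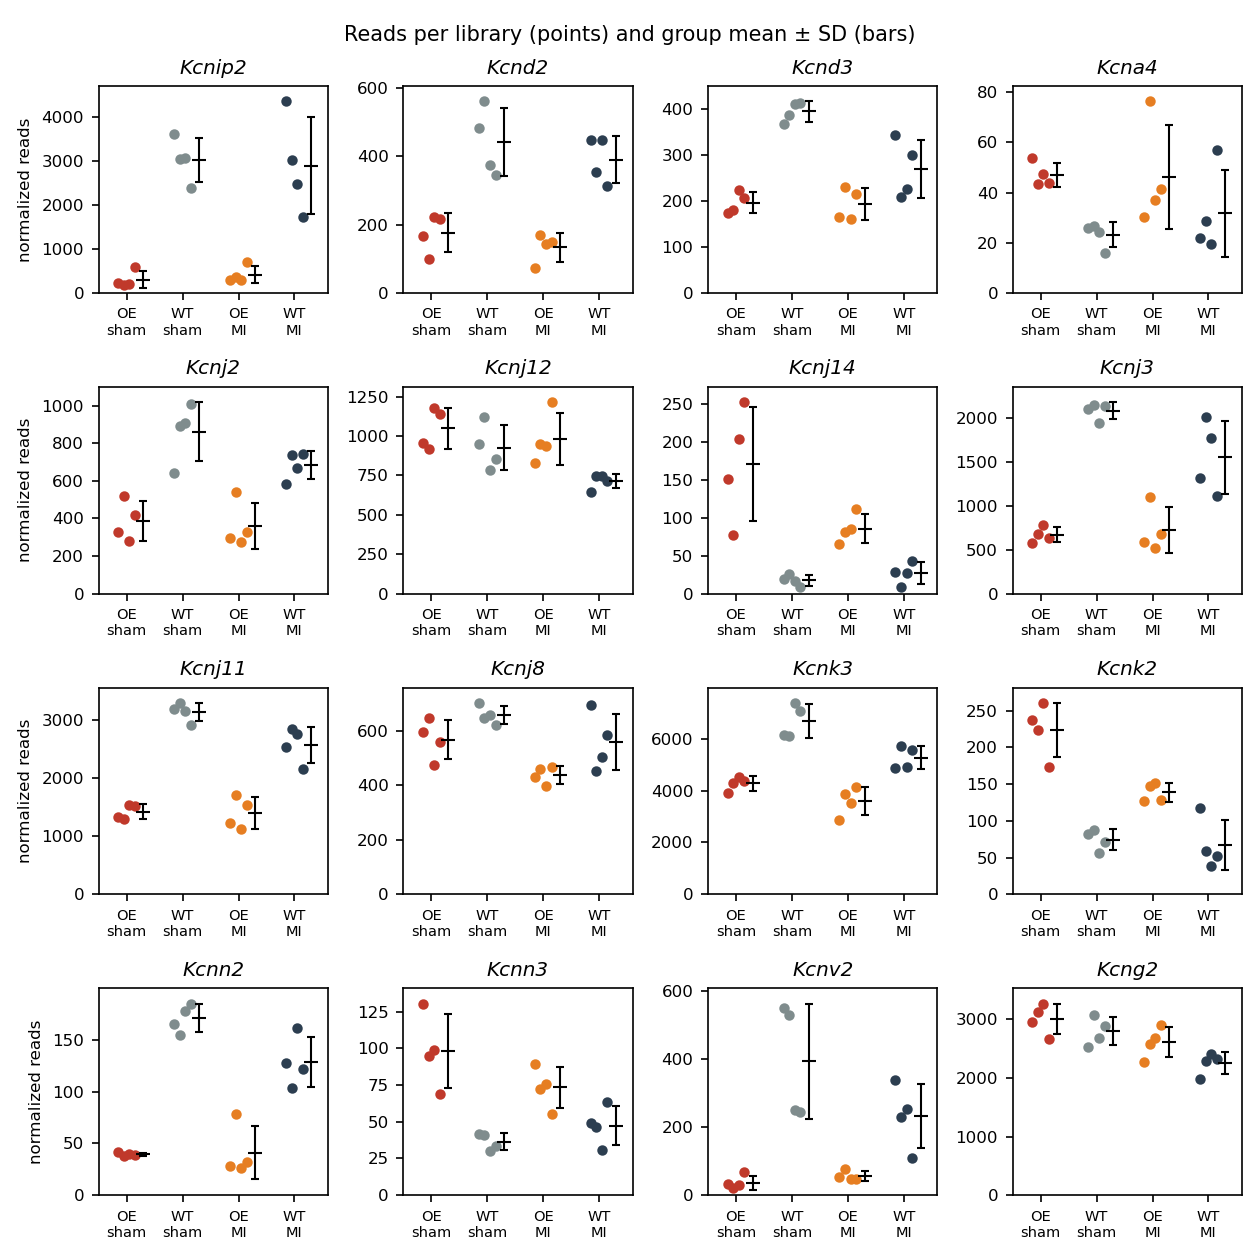
Normalized reads (y axes, linear from 0) of 16 potassium channel genes in each library, with OE left of WT within sham and within infarcted (MI) hearts. Coloured points are libraries and black bars the group mean ± SD of 4. Kcnip2, Kcnd2, Kcnj3, Kcnj11, Kcnn2 and Kcnv2 are lower in OE hearts, Kcnj14, Kcnk2 and Kcnn3 are higher in OE sham hearts, and Kcng2 and Kcnj12 overlap in sham hearts.

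Sequences before the start sites of 4 genes that passed are shown because Klf15, a factor known from mouse heart to drive Kcnip2, was lower in OE hearts as well. Klf15 had 466, 399, 392.001 and 495 normalized reads in OE sham and 1519, 1718, 1442 and 1353 in WT sham hearts (log2 fold change -1.78, SE 0.23, adjusted p = 1.34e-05), and 836, 613, 715 and 765 in OE infarcted and 1538, 2448, 1571 and 794 in WT infarcted hearts (log2 fold change -1.02, SE 0.23, adjusted p = 0.00326), where 1 WT library, replicate 4, fell among the OE libraries. Factors of this family bind CACCC-type boxes. In the 250 bases before each RefSeq start (GRCm38.p6, the build of the deposited data), read 5′ to 3′ on the gene's strand, capitals mark CACCC on that strand or GGGTG, its complement; no other motif was searched.
Kcnip2 (chr19:45816064-45816313, minus strand): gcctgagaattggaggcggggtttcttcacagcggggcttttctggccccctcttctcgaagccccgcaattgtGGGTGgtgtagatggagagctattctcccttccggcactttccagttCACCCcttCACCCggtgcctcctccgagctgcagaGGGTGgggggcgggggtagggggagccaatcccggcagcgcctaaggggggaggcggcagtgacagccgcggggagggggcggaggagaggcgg
Kcnd2 (chr6:21215096-21215345, plus strand): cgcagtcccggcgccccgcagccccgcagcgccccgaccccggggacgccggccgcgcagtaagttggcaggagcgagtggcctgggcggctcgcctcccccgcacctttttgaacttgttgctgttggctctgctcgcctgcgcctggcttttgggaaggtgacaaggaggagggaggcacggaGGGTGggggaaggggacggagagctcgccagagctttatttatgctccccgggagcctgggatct
Kcnj2 (chr11:111065914-111066163, plus strand): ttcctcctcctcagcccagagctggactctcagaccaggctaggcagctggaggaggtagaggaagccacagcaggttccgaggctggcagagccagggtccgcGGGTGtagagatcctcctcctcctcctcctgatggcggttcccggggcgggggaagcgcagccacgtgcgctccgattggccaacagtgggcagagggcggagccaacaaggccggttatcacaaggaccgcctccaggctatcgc
Kcnn3 (chr3:89519914-89520163, plus strand): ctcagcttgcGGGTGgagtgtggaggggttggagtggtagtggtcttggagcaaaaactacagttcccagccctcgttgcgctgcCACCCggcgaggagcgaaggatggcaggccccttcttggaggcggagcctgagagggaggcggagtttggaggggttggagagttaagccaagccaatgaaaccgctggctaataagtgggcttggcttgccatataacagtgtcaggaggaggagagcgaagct
The Kcnip2 window held 4 matches, Kcnn3 held 2, and Kcnd2 and Kcnj2 held 1 each. Of 32851 such windows that RefSeq gives 52.0% held at least 1 match, as did 73.1% of the 67 windows of 47 members. Kcnip2, Kcnd2 and Kcnj2 were lower and Kcnn3 higher in OE hearts. The part of Klf15 in these changes was not tested. A match describes letters and not binding.

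Delayed rectifier pore genes included Kcna7, Kcna1 and Kcna2, which were lower in OE sham hearts, and Kcna3, which was higher. Of 10 tested genes of this group, auxiliary beta subunits included, 4 fell, 1 rose and 5 did not pass, against 24.5% lower and 24.9% higher of all genes. Kcna5, the pore of the ultrarapid current IKur, did not pass in either comparison. It had 426, 633, 505 and 217 normalized reads in OE sham and 671, 666, 658 and 491 in WT sham hearts (log2 fold change -0.57, SE 0.39, adjusted p = 0.239), and 614, 298, 705 and 825 in OE infarcted and 672, 974.8, 801 and 279 in WT infarcted hearts (log2 fold change -0.12, SE 0.39, adjusted p = 0.855). The 95% interval of its log2 fold change in sham hearts, -1.42 to 0.28, covers no change and changes of either sign. In sham hearts all 4 OE libraries lay below 3 of the 4 WT libraries, and replicate 4 was the lowest of its group in both genotypes.

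Among the less abundant Kv1 pores, Kcna7, a pore of heart and skeletal muscle, had 68.8, 92.2, 104 and 128 normalized reads in OE sham and 385, 345, 309 and 296 in WT sham hearts (log2 fold change -1.78, SE 0.19, adjusted p = 1.93e-06), and 101, 148, 86.1 and 86.3 in OE infarcted and 259, 206, 215 and 214 in WT infarcted hearts (-1.11, adjusted p = 3.75e-04). Kcna1 had 49.2, 41.5, 36.2 and 64.6 in OE sham and 123, 91.9, 146 and 92.0 in WT sham hearts (log2 fold change -1.23, SE 0.25, adjusted p = 6.97e-04; after MI -0.95, adjusted p = 0.00804), and Kcna2 gave -0.85, adjusted p = 0.0135 in sham hearts, which was lost without OE sham replicate 1 (adjusted p = 0.0511), and -0.87, adjusted p = 0.0183 after MI. All 3 were lower in OE. Kcna3, a channel of lymphocytes and macrophages, went the other way at the edge of detection, with 5.36, 11.99, 2.85 and 3.99 in OE sham and 1.29, 0, 2.30 and 1.07 in WT sham hearts (log2 fold change 1.67, SE 0.49, adjusted p = 0.0103). Markers of macrophages moved with Kcna3 in sham hearts: their 8 genes summed to between 6542 and 7599 in OE sham and between 4329 and 5050.0 in WT sham hearts, with 6 of 8 higher. Of 4 tested markers of T and natural killer cells 0 passed in sham hearts, with a median log2 fold change of 0.46. In infarcted hearts 0 of 8 macrophage markers passed and 2 of the 4 T and natural killer cell markers were higher in OE, while Kcna3 did not pass. The part of these cells in the Kcna3 result was not tested. Kcna3 reached 10 reads in 3 OE libraries and 1 WT library, and so entered the test mainly through OE hearts. Kcna6 and the beta subunit genes Kcnab1, Kcnab2 and Kcnab3 did not pass in either genotype comparison.

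Silent subunits, which form no channel alone but alter other Kv channels, did not move together. Kcnv2 (chr19:27322588-27337179) had 31.3, 19.4, 29.5 and 66.2 normalized reads in OE sham and 549, 529.8, 248 and 244 in WT sham hearts (log2 fold change -3.42, SE 0.39, adjusted p = 4.61e-06), and 52.5, 77.2, 47.2 and 45.8 in OE infarcted and 337, 229, 252 and 107 in WT infarcted hearts (log2 fold change -1.96, SE 0.39, adjusted p = 0.00143). WT libraries were widely spread, but the genotypes did not overlap in either setting. Kcng2, by contrast, had 2961, 3134, 3272 and 2673 in OE sham and 2535, 3084, 2687 and 2887 in WT sham hearts, which overlapped (log2 fold change 0.11, SE 0.09, adjusted p = 0.347, 95% interval -0.09 to 0.30). It had rank 2 of all members per kilobase in both OE groups and rank 4 in both WT groups. When reads were scaled to library totals, Kcng2 passed as higher in OE in both settings. Kcns3 and Kcng4 were too low to be tested.

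Pores of the rapid and slow delayed rectifiers, which dominate late repolarization in large mammals and are minor in the adult mouse, were both lower. Kcnh2 (chr5:24319589-24351604), the pore of IKr, had 1009.9, 1139, 1339.7 and 1291 normalized reads in OE sham and 2554, 2866, 2426 and 2591 in WT sham hearts (log2 fold change -1.13, SE 0.15, adjusted p = 1.34e-05). After MI it had 1096, 1923, 1118 and 1373 in OE and 1673, 1849, 1641 and 2031 in WT hearts, where OE replicate 2 lay above 3 of 4 WT libraries (log2 fold change -0.42, SE 0.15, adjusted p = 0.0395). With lung and thymocyte genes as covariates the log2 fold change was 0.0069 (adjusted p = 0.985), and each of 6 single libraries ended the call. Kcnq1 (chr7:143106362-143427042), the pore of IKs, had 530.0, 596, 542 and 414 in OE sham and 1065, 1248, 1182 and 1131 in WT sham hearts (log2 fold change -1.16, SE 0.17, adjusted p = 4.59e-05), and 558, 863, 452 and 441 in OE infarcted and 840.0, 1019.7, 883 and 1054 in WT infarcted hearts (-0.76, adjusted p = 0.00307). Kcnq1ot1, the noncoding RNA antisense to it, gave 0.01, adjusted p = 0.980 in sham hearts.

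KCNE beta subunits, small membrane proteins that modify these and other pores, were higher in OE sham hearts (Kcne4 and Kcne1l) or did not pass (Kcne1 and Kcne3). Kcne4 had 104, 144, 99.9 and 98.8 normalized reads in OE sham and 45.2, 47.2, 41.4 and 41.7 in WT sham hearts, a rise without overlap (log2 fold change 1.31, SE 0.23, adjusted p = 2.03e-04). Infarcted hearts of both genotypes lay in or near the OE sham range, apart from OE infarcted replicate 1, which was higher, with 262, 108, 120.3 and 105 in OE and 114, 109.7, 100.04 and 101 in WT (0.37, adjusted p = 0.236). Kcne1l had 7.15, 10.1, 26.6 and 17.5 in OE sham and 6.46, 6.38, 2.30 and 4.28 in WT sham hearts (log2 fold change 1.4004, SE 0.47, adjusted p = 0.0222), and the call was lost without OE sham replicate 3 (adjusted p = 0.0814) or 4 (0.0557) or WT sham replicate 3 (0.0714), and with RA numbers 1 to 12 only (0.302). Kcne1l reached 10 reads in 6 OE libraries and 0 WT libraries, and so entered the test through OE hearts. Kcne1, the classical partner of Kcnq1, did not pass, with 16.1, 19.4, 17.1 and 9.57 in OE sham and 14.2, 24.3, 95.4 and 42.8 in WT sham hearts (log2 fold change -1.15, SE 0.52, adjusted p = 0.0773), and Kcne3 gave 1.15, adjusted p = 0.104.

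Among the inward rectifiers of the resting current IK1, genes moved in opposite directions and the summed level overlapped in sham hearts. Kcnj2 (chr11:111066164-111076821) had 325, 517, 279 and 418 normalized reads in OE sham and 639, 892, 906 and 1009 in WT sham hearts (log2 fold change -1.18, SE 0.21, adjusted p = 3.09e-04), and 293, 538, 272 and 327 in OE infarcted and 581, 738, 669.8 and 743 in WT infarcted hearts (log2 fold change -0.98, SE 0.21, adjusted p = 0.00265). Kcnj12 (chr11:61022564-61071131) had 953, 919, 1179 and 1139 in OE sham and 947, 1118, 786 and 854 in WT sham hearts, which overlapped (log2 fold change 0.18, SE 0.12, adjusted p = 0.243), but was higher in OE after MI, with 826, 949, 936 and 1215 in OE and 647, 748, 743 and 715 in WT hearts (log2 fold change 0.45, SE 0.12, adjusted p = 0.0119). The infarcted call of Kcnj12 ended without the libraries that held lung genes (adjusted p = 0.0960), without those that held skeletal muscle genes (0.0629) and with lung and thymocyte genes as covariates (0.125). That of Kcnj2 ended without the lung libraries (-0.91, adjusted p = 0.0740) and with the covariates (-0.53, adjusted p = 0.236). On library totals Kcnj12 passed as higher in sham hearts too.

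Kcnj14 (chr7:45816460-45824782, minus strand), an inward rectifier gene of low level in WT hearts, had 151, 76.5, 204 and 252 normalized reads in OE sham, against 19.4, 25.5, 16.1 and 8.55 in WT sham hearts. After MI it had 64.8, 81.1, 85.2 and 111 in OE and 28.9, 8.77, 27.2 and 43.2 in WT hearts. OE and WT libraries did not overlap in either setting, and the rise passed in both (log2 fold change 3.19, SE 0.44, adjusted p = 2.61e-05 in sham hearts; log2 fold change 1.79, SE 0.44, adjusted p = 0.00575 in infarcted hearts). The infarcted call was lost without the libraries that held lung genes, which left a log2 fold change of 1.52. It was also lost without the libraries that held skeletal muscle genes, and with lung and thymocyte genes as covariates. Kcnj4 did not pass (0.04, adjusted p = 0.956).

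Summed per kilobase, the 4 IK1 genes stood at 520.4 ± 64.3 in OE sham and 506 ± 56.1 in WT sham hearts, and at 464 ± 69.8 in OE infarcted and 398 ± 29.1 in WT infarcted hearts (mean ± SD, n = 4 each). Within that sum the share of Kcnj2 was 13.8 ± 4.71% in OE sham and 31.4 ± 5.86% in WT sham hearts, while that of Kcnj14 was 11.9 ± 4.17% in OE sham and 1.27 ± 0.449% in WT sham hearts. After MI the share of Kcnj2 was 14.2 ± 4.53% in OE and 31.4 ± 1.54% in WT, and that of Kcnj14 6.83 ± 0.652% in OE and 2.55 ± 1.30% in WT hearts.

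**Figure D3:**
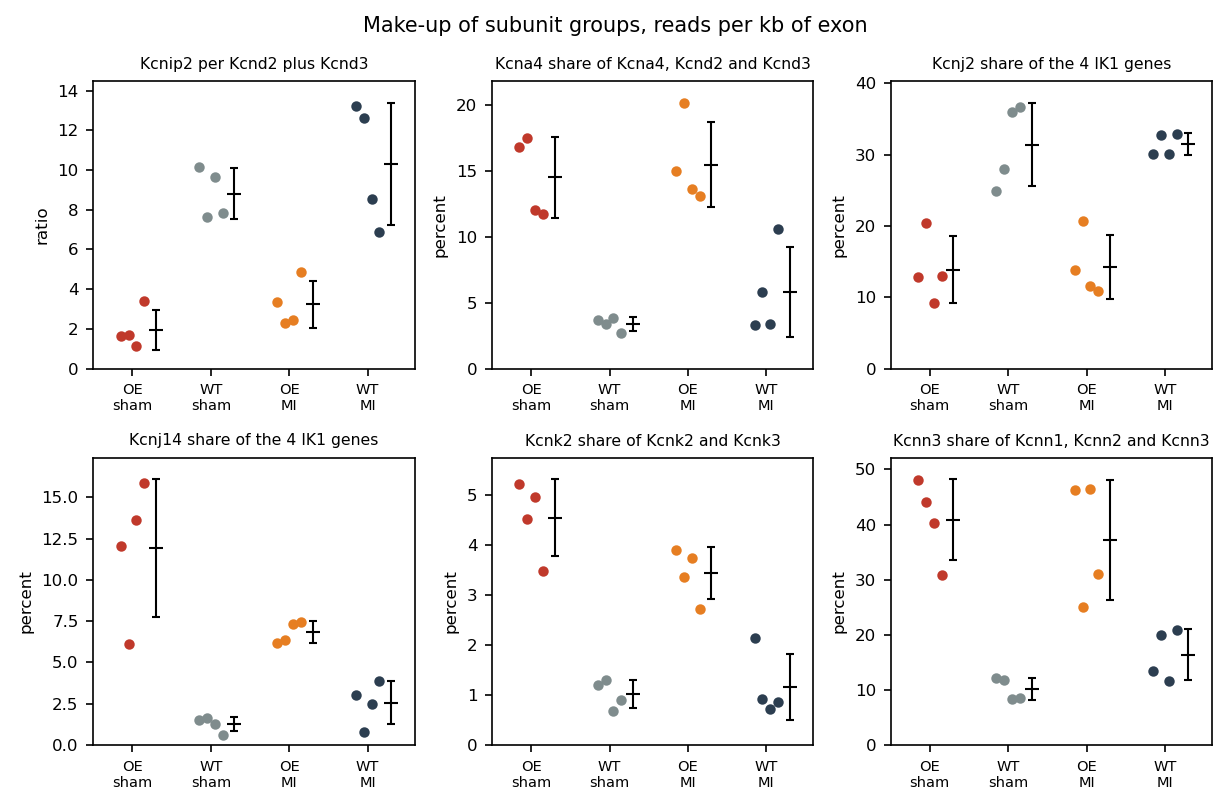
Make-up of subunit groups per library, as a ratio or a percent of reads per kilobase of exon (y axes, linear from 0), with OE left of WT within sham and within infarcted (MI) hearts. Coloured points are libraries and black bars the group mean ± SD of 4. In each of the 6 panels OE and WT libraries do not overlap within a setting, with the Kcnip2 ratio and the Kcnj2 share lower and the other 4 shares higher in OE.

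Genes of IKACh, the inward rectifier that acetylcholine opens through G proteins and that is prominent in atria, were lower for both abundant pores. Kcnj3 (chr2:55435970-55598145) had 575, 681, 776 and 635 normalized reads in OE sham and 2104, 2149.7, 1939.8 and 2137 in WT sham hearts (log2 fold change -1.65, SE 0.20, adjusted p = 9.28e-06), and 590.5, 1096, 517 and 683 in OE infarcted and 1315, 2007, 1772 and 1105 in WT infarcted hearts (log2 fold change -1.12, SE 0.20, adjusted p = 6.66e-04). Its partner Kcnj5 had 1148, 961, 1184 and 1106 in OE sham and 1869.8, 2312, 1796 and 2107 in WT sham hearts (log2 fold change -0.87, SE 0.19, adjusted p = 0.00121), and after MI 1037, 1365, 614 and 1192 in OE and 1208, 1274, 1194 and 1667 in WT hearts (-0.39, adjusted p = 0.129), which overlapped. The summed reads of 6 atrial markers ran between 11331 and 15424 in OE sham and between 10096 and 20854.5 in WT sham hearts, which overlapped, but 2 of the 6 passed as lower and their median log2 fold change was -0.45. Those were Myl7 (-1.30, adjusted p = 0.0158), with 1584 to 2484 normalized reads in OE sham and 3390 to 5827 in WT sham hearts, and Stard10 (-0.83, adjusted p = 0.0274). In infarcted hearts 0 of the 6 atrial markers passed as higher or lower, and their median log2 fold change was 0.02. The part of atrial tissue in the falls of Kcnj3 and Kcnj5 was not tested. Kcnj6, a neuronal member of this group, was low but higher in OE sham hearts, with 32.2, 24.9, 19.03 and 15.9 in OE and 0, 0, 6.89 and 7.48 in WT (log2 fold change 3.02, SE 0.73, adjusted p = 0.00302). Kcnj6 reached 10 reads in 8 OE libraries and 1 WT library, and so entered the test through OE hearts. It did not pass after MI (1.54, adjusted p = 0.126).

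The ATP-sensitive channel, which opens when the energy charge of the cell falls, had fewer transcripts of its cardiomyocyte pore in OE hearts, while its vascular pore did not pass in sham hearts. Kcnj11 (chr7:46093953-46100764), the pore of heart muscle cells, had 1325, 1306, 1542 and 1527 normalized reads in OE sham and 3195, 3297, 3158 and 2923 in WT sham hearts (log2 fold change -1.14, SE 0.12, adjusted p = 2.03e-06), and 1224, 1715, 1121 and 1536 in OE infarcted and 2544, 2852, 2767 and 2155 in WT infarcted hearts (log2 fold change -0.89, SE 0.12, adjusted p = 5.82e-05). No OE library reached a WT library in either setting. Kcnj8, the pore of smooth muscle and pericytes, had 595, 647, 474 and 559 in OE sham and 704, 649.8, 658 and 623 in WT sham hearts (log2 fold change -0.22, SE 0.12, adjusted p = 0.136), and 431, 459, 396 and 468 in OE infarcted and 694, 454, 506 and 586 in WT infarcted hearts (log2 fold change -0.34, SE 0.12, adjusted p = 0.0398), which overlapped, and each of 4 single libraries ended that call.

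Kcnj8 took 33.0 ± 4.67% of the pore transcripts of this channel per kilobase in OE sham and 20.5 ± 0.762% in WT sham hearts, without overlap, and the shares overlapped after MI. The 8 mural cell markers beside it summed to between 10328 and 11570 in OE sham and between 8855 and 9688 in WT sham hearts. Of the 8, Pdgfrb (0.85, adjusted p = 5.51e-06) and Cspg4 (1.68, adjusted p = 1.15e-06) were higher, 6 did not pass, and the median was -0.10. Their part in the share was not tested. The regulatory subunits, which confer the drug and nucleotide response, were lower too. Abcc9 had 2950.1, 3309.7, 2894 and 2455 normalized reads in OE sham and 9228, 10084, 5672 and 5548 in WT sham hearts (log2 fold change -1.35, SE 0.21, adjusted p = 7.84e-05; after MI -1.14, adjusted p = 7.46e-04), and Abcc8 gave -0.73, adjusted p = 5.60e-04 in sham and -0.52, adjusted p = 0.0115 in infarcted hearts.

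Background channels of the K2P family showed opposite changes in an abundant and a scarce member. Kcnk3 (chr5:30588170-30625271), an acid-sensitive leak channel, was the most abundant member per kilobase in all 4 groups and had 3901, 4278, 4541 and 4388 normalized reads in OE sham and 6139, 6103, 7392 and 7091 in WT sham hearts (log2 fold change -0.64, SE 0.11, adjusted p = 1.24e-04), and 2852, 3857, 3539 and 4142 in OE infarcted and 4869, 5737, 4898 and 5572 in WT infarcted hearts (log2 fold change -0.56, SE 0.11, adjusted p = 8.61e-04). Kcnk2 (chr1:189207930-189402273), a stretch-activated leak channel, had 237, 223, 261 and 174 in OE sham and 82.6, 88.1, 56.3 and 70.6 in WT sham hearts (log2 fold change 1.58, SE 0.25, adjusted p = 9.11e-05). In infarcted hearts it had 127, 148, 152 and 128 in OE and 117, 59.2, 39.1 and 52.7 in WT (log2 fold change 1.16, SE 0.25, adjusted p = 0.00242), but only 0.12 (adjusted p = 0.796) without the libraries that held lung genes, which leaves 1 WT infarcted library, the highest for Kcnk2.

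Kcnk2 made up 4.55 ± 0.772% of Kcnk2 and Kcnk3 transcripts per kilobase in OE sham and 1.02 ± 0.281% in WT sham hearts. Kcnk1, another leak channel, was near 0 in OE sham hearts, with 0.894, 2.77, 2.85 and 0.797 normalized reads in OE, against 20.7, 25.5, 8.04 and 18.2 in WT (log2 fold change -2.74, SE 0.59, adjusted p = 0.00118). Kcnk1 reached 10 reads in 2 OE and 6 WT libraries, and so entered the test mainly through WT hearts. After MI it did not pass, with 3.86, 16.4, 14.8 and 1.76 in OE and 10.8, 26.3, 25.01 and 9.48 in WT hearts (-1.15, adjusted p = 0.156). Kcnk6, Kcnk13 and Kcnk5 had log2 fold changes of 0.26, 0.41 and -0.06 in sham hearts and did not pass.

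The small-conductance calcium-activated channels, which couple calcium release to repolarization, differed by gene. Kcnn2 had 41.1, 37.8, 40.0 and 38.3 normalized reads in OE sham and 165, 154, 178 and 185 in WT sham hearts (log2 fold change -2.09, SE 0.26, adjusted p = 9.44e-06), and 27.8, 78.7, 25.9 and 31.7 in OE infarcted and 128, 103, 161 and 122 in WT infarcted hearts (log2 fold change -1.76, SE 0.26, adjusted p = 1.23e-04). The groups did not overlap, and OE infarcted replicate 2 stood above the other OE infarcted libraries. Kcnn3 (chr3:89520164-89675132) went up, with 130.5, 95.0, 99.0 and 68.6 in OE sham and 41.3, 40.8, 29.9 and 33.1 in WT sham hearts (log2 fold change 1.39, SE 0.23, adjusted p = 1.36e-04) and 89.5, 72.5, 75.9 and 55.5 in OE infarcted and 49.4, 46.1, 30.4 and 63.2 in WT infarcted hearts (log2 fold change 0.65, SE 0.23, adjusted p = 0.0421), where the genotypes overlapped and each of 9 single libraries ended the call. Kcnn1 was lower in OE sham hearts (-0.78, adjusted p = 0.0141), a call lost with RA numbers 1 to 12 only (adjusted p = 0.106).

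Kcnn3 accounted for 40.9 ± 7.36% of these 3 genes per kilobase in OE sham and 10.2 ± 2.00% in WT sham hearts, and for 37.2 ± 10.9% in OE infarcted and 16.4 ± 4.61% in WT infarcted hearts, with no overlap within either setting. Kcnn4, an intermediate-conductance channel known from immune cells and fibroblasts, was higher in OE sham hearts (0.93, adjusted p = 0.0243). That call was lost without OE sham replicates 2 (adjusted p = 0.0523) or 3 (0.0543) or WT sham replicates 3 (0.0562) or 4 (0.0514). Kcnt2, a sodium-activated channel, was higher as well (0.57, adjusted p = 0.0168), a call lost without OE sham replicate 4 (0.0609). With RA numbers 1 to 12 only both calls were lost (0.172 for Kcnn4 and 0.148 for Kcnt2). Kcnma1 and its smooth muscle subunit gene Kcnmb1 did not pass (-0.23 and -0.24), nor did Kcnt1 (-0.25). Fibroblast markers, 8 genes of which 7 were higher, summed to between 112072 and 132983 in OE sham and between 25445 and 28995 in WT sham hearts. Their part in the rises of Kcnn3, Kcnn4, Kcnk2, Kcne4 and Kcnj14 was not tested.

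Of the 9 tested members with no main cardiac current, 1 passed in sham hearts, against 49.3% of all genes. Kcnh1, a voltage-gated channel best known from brain, had 23.2, 40.6, 9.51 and 20.7 normalized reads in OE sham and 15.5, 12.8, 5.75 and 5.35 in WT sham hearts, which overlapped (log2 fold change 1.14, SE 0.39, adjusted p = 0.0231). Leaving out OE sham replicate 1 (adjusted p = 0.0550) or 2 (0.0901), or WT sham replicate 3 (0.0717) or 4 (0.0762), ended that call, as did keeping RA numbers 1 to 12 only (0.386). The other 8, Kcnj15, Kcnc1, Kcnj10, Kcnc2, Kcnq5 and Kcnc4 among them, ranged between -1.09 and 1.37 on the log2 scale. Kcnd3os, a transcript antisense to Kcnd3 and too low to be tested, had 2.68, 0, 1.90 and 5.58 in OE sham and 16.8, 7.66, 6.89 and 7.48 in WT sham hearts. Kcnh3, a brain channel, and Kcnrg were too low to be tested as well, with at most 5.53 and 8.30 in any OE sham library and at most 5.35 and 7.75 in any WT sham library.

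**Figure D4:**
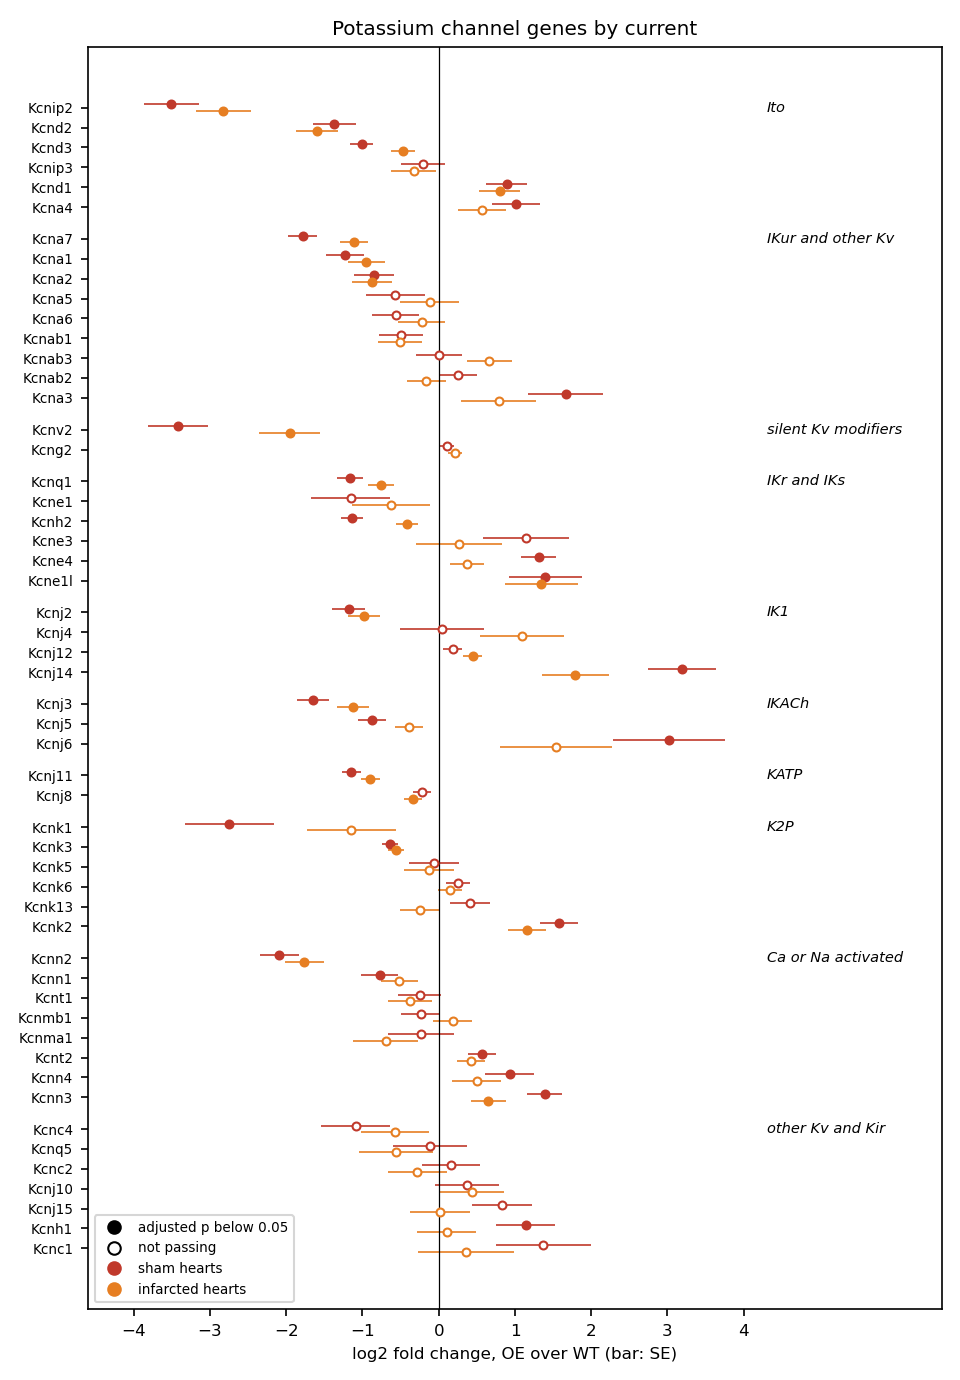
Log2 fold change of OE over WT (x axis, bars are the SE) for 53 of the tested channel subunit genes, grouped by current down the page, in sham hearts (red) and in infarcted hearts (orange). Filled points passed an adjusted p of 0.05 in limma and open points did not. Kcnip2 and Kcnv2 lie farthest left, Kcnj14 and Kcnj6 farthest right, and most points of infarcted hearts lie nearer to 0.

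In OE against WT infarcted hearts 22 of the 57 tested members passed, 6 higher and 16 lower, and 35 did not pass. Over all genes 31.9% passed, 15.5% higher and 16.3% lower. The members' median log2 fold change was -0.25, against 0.01 over all genes. This comparison shares no library with that of sham hearts. Of the 30 members that passed in sham hearts and the 22 that passed in infarcted hearts, 20 passed in both, 66.7% of the first and 90.9% of the second list, where the shares over all genes were 59.1% and 91.5%. All 20 kept their direction, 15 lower and 5 higher (Kcnd1, Kcne1l, Kcnj14, Kcnk2 and Kcnn3), and 18 of the 20 had the larger change in sham hearts, as did 3504 of the 4166 genes called in both over the whole table. Kcnj12 and Kcnj8 passed only after MI, which does not show that the settings differ for them.

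The count in infarcted hearts depended on the libraries. Without the 5 libraries that held lung genes, which leaves 2 OE and 1 WT infarcted hearts, 13 members passed, all lower. The 10 calls lost were those of Kcna1, Kcnd1, Kcne1l, Kcnh2, Kcnj12, Kcnj14, Kcnj2, Kcnk2, Kcnk3 and Kcnn3. The infarcted hearts left without the lung libraries still held RNA of other organs. Rag1 had 256 and 162 normalized reads in OE infarcted replicates 1 and 4. Myh4 had 145 in WT infarcted replicate 1 and 49.4 in OE infarcted replicate 1. Without the 4 libraries that held skeletal muscle genes 11 passed, 2 higher and 9 lower. With lung and thymocyte genes as covariates 4 passed, 1 higher and 3 lower. Those 4 were Kcnip2, Kcnj11 and Kcnn2, which passed as lower in OE infarcted hearts in every alternative run, and Kcnk2, which was higher. Thymocyte genes were high only in OE infarcted libraries, so their covariate cannot be fully told apart from the genotype gap in infarcted hearts. In sham hearts the same 3 alternatives gave 30, 33 and 30 members. The calls of 7 genes ended with single libraries left out: Kcna2 without OE infarcted replicate 1 or WT infarcted replicate 4 (adjusted p = 0.0569 in both), Kcnd1 without OE infarcted replicates 1 or 2 or WT infarcted replicates 2 or 3 (0.0597 to 0.0904), and Kcnd3 without OE infarcted replicates 1 or 3 or WT infarcted replicates 1 or 4 (0.0795 to 0.105). The same 4 libraries ended the call of Kcnj8 (0.0765 to 0.134), 6 libraries that of Kcnh2 (all infarcted ones except OE replicate 2 and WT replicate 3, 0.0510 to 0.131), and 7 that of Kcne1l (all infarcted ones except OE replicate 1, 0.0564 to 0.130). For Kcnn3 it was 9 libraries, namely infarcted replicates 1, 2 and 3 of both genotypes, OE sham replicates 2 and 3 and WT sham replicate 4 (0.0503 to 0.136). OE infarcted replicate 2 was the OE library nearest to WT for 12 of the 16 genes called lower, against 0, 1 and 3 for replicates 1, 3 and 4. Replicates 2 and 3 held lung genes, and replicate 2 alone of the OE infarcted libraries had 0 Rag1 reads. The cause was not tested.

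Scaling moved the balance of directions. On library totals the median of all genes shifted by 0.15 in sham hearts and 0.13 in infarcted hearts on the log2 scale, and 15 members were higher and 18 lower in OE sham hearts. The split in infarcted hearts was then 9 higher and 13 lower: Kcnd3, Kcnh2 and Kcnj8 were lost and Kcnab3, Kcng2 and Kcnt2 gained. Each of the 30 calls in sham hearts stood on that scaling. The authors' deposited table calls 33 members in sham hearts, 12 higher and 21 lower, 29 of them among the 30. It calls 21 in infarcted hearts, 20 of them among the 22.

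Infarction changed few of these genes in WT hearts. Of 57 members 6 passed in WT infarcted against WT sham hearts, where 7.05% of all genes passed, 4.96% higher and 2.09% lower. Kcne4, with the per-library values above, was higher by 1.26 (adjusted p = 0.00600) without overlap. Kcnj15, an inward rectifier gene, had 128, 121, 200.1 and 112 normalized reads in WT infarcted and 63.3, 60.0, 42.5 and 42.8 in WT sham hearts (log2 fold change 1.39, SE 0.39, adjusted p = 0.0447), and Kcna3 had 3.62, 4.39, 5.44 and 11.6 in WT infarcted hearts, above all WT sham libraries (1.75, adjusted p = 0.0435). Kcng2 was lower, with 1982, 2296, 2409 and 2318 in WT infarcted and 2535, 3084, 2687 and 2887 in WT sham hearts (log2 fold change -0.31, SE 0.09, adjusted p = 0.0468). Kcnh2 (-0.54, adjusted p = 0.0390) and Kcnd3 (-0.58, adjusted p = 0.0370) were lower too, and neither gene nor Kcng2 overlapped between WT infarcted and WT sham hearts. These WT sham libraries are also the controls of the OE sham comparison, in which Kcne4, Kcna3, Kcnh2 and Kcnd3 moved the same way. Kcnip2, which was lower in both genotype comparisons, did not pass here and gave -0.12, adjusted p = 0.858, with a 95% interval of -0.91 to 0.66. Fibroblast markers moved with infarction too, with 7 of 8 higher and sums between 50890 and 88982 in WT infarcted and between 25445 and 28995 in WT sham hearts, as did the lung genes named above. Of 8 macrophage markers 4 were higher, with sums between 5532 and 9560 in WT infarcted and between 4329 and 5050 in WT sham hearts, and of 8 cardiomyocyte markers 2 were lower. Their part in the 6 changes was not tested.

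None of the 6 WT calls held in every alternative. Kcne4 passed with each library left out in turn, but not without the libraries with lung genes (adjusted p = 0.377). That alternative leaves 1 WT infarcted heart and ended all 6 calls, as did lung and thymocyte covariates. Kcnd3, Kcnh2, Kcng2, Kcnj15 and Kcna3 all lost the call without WT sham replicate 2 or 4, and without WT infarcted replicate 2 or 3. Counting every library of the fit, OE libraries included because they share the estimate of spread, 6 single omissions ended the call of Kcnd3, 8 that of Kcnh2, 10 that of Kcnj15, and 11 each those of Kcng2 and Kcna3, with adjusted p between 0.05002 and 0.142. On library totals the 3 genes called lower were lost.

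In OE hearts infarction gave no call among the members. In limma 0 of 57 passed in OE infarcted against OE sham hearts, where 6 had an unadjusted p below 0.05, and edgeR and DESeq2 on recovered reads also gave 0. Of all genes 0.00699% passed in this comparison. The test of whether the genotype effect differed between sham and infarcted hearts likewise called 0 of 57 members, with 8 below an unadjusted p of 0.05 and 0 in edgeR and in DESeq2, where 0.0839% of all genes passed, 0.00699% higher and 0.0769% lower. The largest of these differences by size was that of Kcnk1 (log2 fold change 1.60, SE 0.83, adjusted p = 0.547). Kcne4 passed in it without OE infarcted replicate 1, its highest library, and without the libraries that held skeletal muscle genes, and Kcnh2 with lung and thymocyte covariates. The smaller changes of most members after MI were thus not shown to differ from those in sham hearts.

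Genes that act with these channels were followed as a list of 26, of which 22 were tested. In OE sham hearts 6 were higher, 10 lower and 6 did not pass, and in OE infarcted hearts 5 were higher, 6 lower and 11 did not pass. Over all genes the shares were 24.9% higher and 24.5% lower in sham hearts, and 15.5% and 16.3% in infarcted hearts. Ncs1, a calcium sensor that binds Kv4 channels, was higher in both (0.63, adjusted p = 0.00448 in sham; 0.73, adjusted p = 0.00284 in infarcted hearts), opposite to Kcnip2. Dpp6 and Dpp10, further Kv4 partners, were too low to be tested. Lrrc52, a subunit of large-conductance potassium channels, was lower (-2.92, adjusted p = 2.46e-04) and its relative Lrrc55 higher (1.55, adjusted p = 0.0232) in OE sham hearts. Scaffolds differed, with Cttn higher (1.20, adjusted p = 1.62e-07) and Ank2 lower (-0.80, adjusted p = 2.28e-05). Of the factors known to act on Ito genes in mouse heart, Irx3 (0.04, adjusted p = 0.881) and Irx5, a repressor of Kcnd2 (0.43, adjusted p = 0.236), did not pass, while Irx4 was lower (-0.85, adjusted p = 0.00933) and Rest, a repressor of neuronal genes, higher (0.41, adjusted p = 0.00903). In WT hearts after MI 1 of the 22 passed, against 7.05% of all genes. It was Nfatc4, which was higher.

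Levels per kilobase showed how the order of the channel genes differed. Kcnk3 had rank 1 and Kcnj11 rank 3 in every group. Kcnip2 had rank 2 in both WT groups, at 1211 ± 202 reads per kilobase in WT sham hearts, but rank 11 in OE sham hearts, at 119 ± 77.0 reads per kilobase, and rank 10 in OE infarcted hearts. Kcnj12 had rank 4 in both OE groups and rank 9 in both WT groups.

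Counting was not stated to use strand, so reads of overlapping antisense genes cannot be told apart. Per GENCODE vM21, exons of Kcna6 overlap other genes' exons on the opposite strand over 2355 bases, those of Kcnj3 over 1621, Kcnq1ot1 over 1119, Kcnma1 over 1016, Kcnn2 over 607, Kcnk2 over 604, Kcnj6 over 380, Kcnj15 over 333 and Kcnq5 over 237 bases. Overlaps of Kcnk1, Kcnd3, Kcnab3, Kcnn1, Kcnq1, Kcnab1, Kcnt2, Kcnip4 and Kcng2 ranged between 96 and 179 bases.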

How the data were processed

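RNA of 16 mouse hearts was sequenced as polyA-selected libraries with single 60-nt reads. Reads were trimmed with cutadapt (40 nt minimum), subsampled, aligned with TopHat 2.0.10 and counted over RefSeq genes, per the series' design text, with DESeq2 1.6.3 for the authors' tests, per the submitters' processing notes. The signal the authors deposited per library is a read count divided by a size factor. The authors' deposited log2 fold changes and p-values were used only where named. Whole reads were recovered from the deposited values (100% within a tolerance of 0.001), giving 11939093 to 17468914 reads per library, which limits precision for genes of few reads.

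Here log2(value + 1) was fitted in limma 3.58.1 (R 4.3.3) with a variance trend and 1 mean per group over all 16 libraries (12 residual degrees of freedom). A gene was tested where 4 or more libraries held a value of 10 or more, p-values were adjusted by Benjamini-Hochberg over 14298 genes, and the threshold was 0.05. The pseudocount shrinks fold changes of low genes. edgeR 4.0.16 and DESeq2 1.42.0 on recovered reads, other scalings, filters, pseudocounts and library omissions were alternatives. Levels per kilobase used GENCODE vM21 exons (GRCm38). The scripts were tested on simulated data.

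Members, marker and partner lists were chosen with earlier results of these data known. Per-library values are given for 16 fixed cardiac subunit genes, the 22 members that passed with at least a 2-fold change in sham hearts, and the 6 that passed after MI in WT hearts (31 genes in all). Values of other members were added after they were seen. Some members, counted in the totals, are not reported here. Animals being separate rests on the design text, so p-values measure the spread between these libraries.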

Additional observations from a re-analysis of the deposited data

Results flagged for a closer look

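A single library stood apart from the other 3 of its group, by Dixon's criterion, in 8 of 124 sets of 4 libraries examined. Chance alone flags about 1 set in 20.

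Kcnip2 had 584 normalized reads in OE sham replicate 4, against 177, 204 and 223 in the other OE sham hearts, and 692 in OE infarcted replicate 4, against 296, 299 and 362 in the other OE infarcted hearts. Both values stayed below all WT libraries. Kcnn2 had 78.7 in OE infarcted replicate 2, against 25.9, 27.8 and 31.7 in the other 3, also below all WT infarcted libraries.

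Kcne4 had 144 in OE sham replicate 2, against 98.8, 99.9 and 104 in the other 3, and 262 in OE infarcted replicate 1, against 105, 108 and 120.3 in the other 3. Kcnj6 had 38.0 in OE infarcted replicate 3, against 12.5, 14.7 and 16.7 in the other 3. Kcnj5 had 1667 in WT infarcted replicate 4, against 1194, 1208 and 1274 in the other 3. Kcna5 had 491 in WT sham replicate 4, against 658, 666 and 671 in the other 3.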

How the results depend on the processing

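Among OE sham calls 22 of 30 held in every alternative that tested them, among OE infarcted calls 3 of 22, and among calls after MI in WT hearts 0 of 6. The number of members that passed in OE against WT sham hearts ran between 22 and 33 over all alternatives and between 27 and 31 with 1 library left out, and it was 23 with RA numbers 1 to 12 only. In infarcted hearts it was 4 with lung and thymocyte covariates, 13 without libraries with lung genes, 11 without libraries with skeletal muscle genes and 16 with only the compared groups, and between 17 and 22 with 1 library left out. The omissions of lung and skeletal muscle libraries were chosen after seeing the data. Kcnh2 in infarcted hearts changed sign with covariates, to 0.0069 on the log2 scale (adjusted p = 0.985), and the cause was not tested. After MI in WT hearts 1 member passed in edgeR, 12 in DESeq2, 3 with no filter, 0 with covariates, 0 with RA numbers 1 to 12 only, 0 without lung libraries and 3 without skeletal muscle libraries, and between 1 and 9 with 1 library left out. The interaction gave 1 with covariates, 1 without skeletal muscle libraries, and 0 to 1 with 1 library left out. The causes of these differences were not tested. Same-numbered libraries correlated between -0.34 and 0.27 in their deviations from the group means. With so few libraries per group this cannot decide whether replicate numbers pair the libraries. With the replicate number as a block 30 members passed in sham, 20 in infarcted hearts, 6 after MI in WT, 0 after MI in OE and 0 in the interaction. At these depths genes near 10 normalized reads rest on few reads per library.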
